A study of Homo sapiens with 6 samples.

Results

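The ephrins, the Eph receptors, the slits with their robo receptors and the netrins with theirs are cell surface and secreted proteins that steer cells and axons. They were taken from the count table of a bone marrow mesenchymal stem cell line by gene symbol among the protein-coding genes: 41 of the 58735 genes listed. These comprised 14 Eph receptors, 8 ephrins, 7 slits and robos, and 12 netrins and netrin receptors (the UNC5 genes, DCC and NEO1). The UE7T-9 cell line, derived from human bone marrow, was compared with the UE7T-9 SRRM4 KO cell line, in which SRRM4, the gene of a neuronal splicing factor, had been targeted with lenti-CRISPR v2. The control libraries are UE7T-9 cells with the genotype WT, and the SRRM4 KO libraries come from a line that was selected with puromycin and cloned by dilution, and whose loss of SRRM4 was, by the study's own account, not complete. Non-stranded mRNA-seq libraries were made from total RNA, 3 of control and 3 of SRRM4 KO cells, all kept in DMEM. A difference between the groups is therefore a difference between the control cells and 1 clone, and the effects of the targeted gene and of making and cloning the line cannot be told apart. The labels do not say whether the 3 libraries of a group came from separate cultures, so the p-values measure only the spread between these libraries, which may be technical.

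Ephrins are bound to the membrane, the A class by a lipid anchor and the B class by a transmembrane segment, and they signal through Eph receptor tyrosine kinases on touching cells, usually by making the cells retract from each other. Slits are secreted and bind robo receptors, also mainly as repellents. Netrins are laminin-like secreted proteins that attract or repel according to the receptor, DCC and neogenin (NEO1) serving attraction and the UNC5 receptors repulsion, and neogenin also binds the repulsive guidance molecules. In bone, ephrin-B2 with EphB4 is known from the contact of osteoclasts with osteoblasts, and in vessels the same pair marks arteries and veins. SRRM4 itself is known for switching on very short exons in neurons.

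SRRM4 had 0 counts in each of the 6 libraries, so its RNA was not detected in control either, and the knockout stays unchecked at the RNA level. The libraries held from 21496117 to 23868323 counts, and 3 counts, the limit that a count of 0 allows, correspond to 0.123 to 0.139 CPM (counts scaled to the normalized library size, per 1e6), which covers counting error only. Control replicate 1 stood apart, with 22403 genes counted where the other 5 libraries had 20127 to 20674, and values without it are given for some of the genes below. All 8 mesenchymal stem cell markers examined passed the filter on low counts, with a summed level of 4276 to 4602 CPM in control and 4660 to 4914 CPM in SRRM4 KO, although THY1 fell from 144 to 26.7 CPM and PDGFRB from 692 to 157 CPM while CD44 rose from 147 to 386 CPM. Summed blood cell markers were 20.7 to 21.8 CPM in control and 17.9 to 21.1 CPM in SRRM4 KO, epithelial markers 97.0 to 118 and 101 to 108 CPM, and neuronal markers 4.04 to 5.12 and 2.09 to 3.55 CPM. PTPRC, which defines blood cells, did not exceed 2 counts in any library, and neither did EPCAM of the epithelial markers. Most of the epithelial sum came from KRT18, at 84.0 CPM in control and 88.5 CPM in SRRM4 KO. CD14 gave most of the blood cell sum, at 16.8 and 15.9 CPM.

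Short exons are the class of sequence that SRRM4 is known to act on, and several of these guidance genes carry them. In GENCODE release 29 (GRCh38), 8 of the 41 members (19.5%) had an internal coding exon of 3 to 27 bases, and so did 8.43% of the 19951 protein-coding genes of the table. The sequences below are read from GENCODE transcripts 5′ to 3′ on the sense strand, with the short exon in capitals between 30 bases of each neighbouring exon, to show the parts of the members that an exon-level measurement would have to resolve. They come from the 7 tested members with such an exon, 1 exon a gene, the exon of SLIT2 being the counterpart of that of SLIT1.
NTNG2 (chr9:132230572-132230595, 24 bases, plus strand): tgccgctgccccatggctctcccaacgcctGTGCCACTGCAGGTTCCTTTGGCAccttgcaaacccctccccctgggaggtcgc
NTNG1 (chr1:107407682-107407708, 27 bases, plus strand): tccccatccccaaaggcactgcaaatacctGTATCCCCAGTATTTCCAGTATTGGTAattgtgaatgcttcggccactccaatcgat
SLIT1 (chr10:97047973-97047996, 24 bases, minus strand): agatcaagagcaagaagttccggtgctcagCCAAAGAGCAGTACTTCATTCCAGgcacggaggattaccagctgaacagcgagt
SLIT2 (chr4:20525149-20525172, 24 bases, plus strand): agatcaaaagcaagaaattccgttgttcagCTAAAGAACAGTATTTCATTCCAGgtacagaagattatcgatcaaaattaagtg
ROBO1 (chr3:78693348-78693356, 9 bases, minus strand): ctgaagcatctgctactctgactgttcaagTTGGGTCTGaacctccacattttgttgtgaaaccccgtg
ROBO2 (chr3:77527403-77527414, 12 bases, plus strand): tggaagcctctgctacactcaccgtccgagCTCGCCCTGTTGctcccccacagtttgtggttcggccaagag
ROBO3 (chr11:124877161-124877184, 24 bases, plus strand): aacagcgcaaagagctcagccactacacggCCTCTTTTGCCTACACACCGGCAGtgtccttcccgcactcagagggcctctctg
The short exons of SLIT1 and SLIT2 were identical at 21 of 24 positions. The ROBO1 exon was present in 3 of 9 annotated coding transcripts, that of NTNG1 in 7 of 7 and that of NTNG2 in 2 of 2. Counts per gene sum all transcripts, so whether these exons were used differently in SRRM4 KO cells was not measured.

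For the comparison, edgeR's quasi-likelihood test was applied to the 15341 genes that passed its filter on low counts. Of the 41 members 26 were tested and 15 were not. A gene was called when its Benjamini-Hochberg adjusted p was under 0.05 and its log2 fold change (SRRM4 KO against control) lay beyond 1 in either direction. Of the tested members 4 were called higher, EPHB2, ROBO4, EFNB1 and EPHA2, and 6 lower, UNC5B, SLIT1, SLIT3, NTNG2, EPHA3 and NEO1. Over all tested genes 5.45% were called higher and 7.14% lower, 12.6% together. The filter asked for 3 libraries above a low limit. SLIT1 met it in 3 control and 0 SRRM4 KO libraries and so had to differ in order to be tested, and ROBO4, with 3 SRRM4 KO and 1 control library above the limit, was tested because of its SRRM4 KO level. The median log2 fold change was -0.005 in the tested members and -0.005 over all genes tested, while the median size of the change regardless of direction was 0.55 in the members and 0.35 over all tested genes. The libraries of the groups did not overlap in CPM in 18 of the 26 members, beside 51.8% of all tested genes. In these bulk libraries, a smaller share of cells making a transcript and less of it per cell cannot be told apart.

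**Figure D1:**
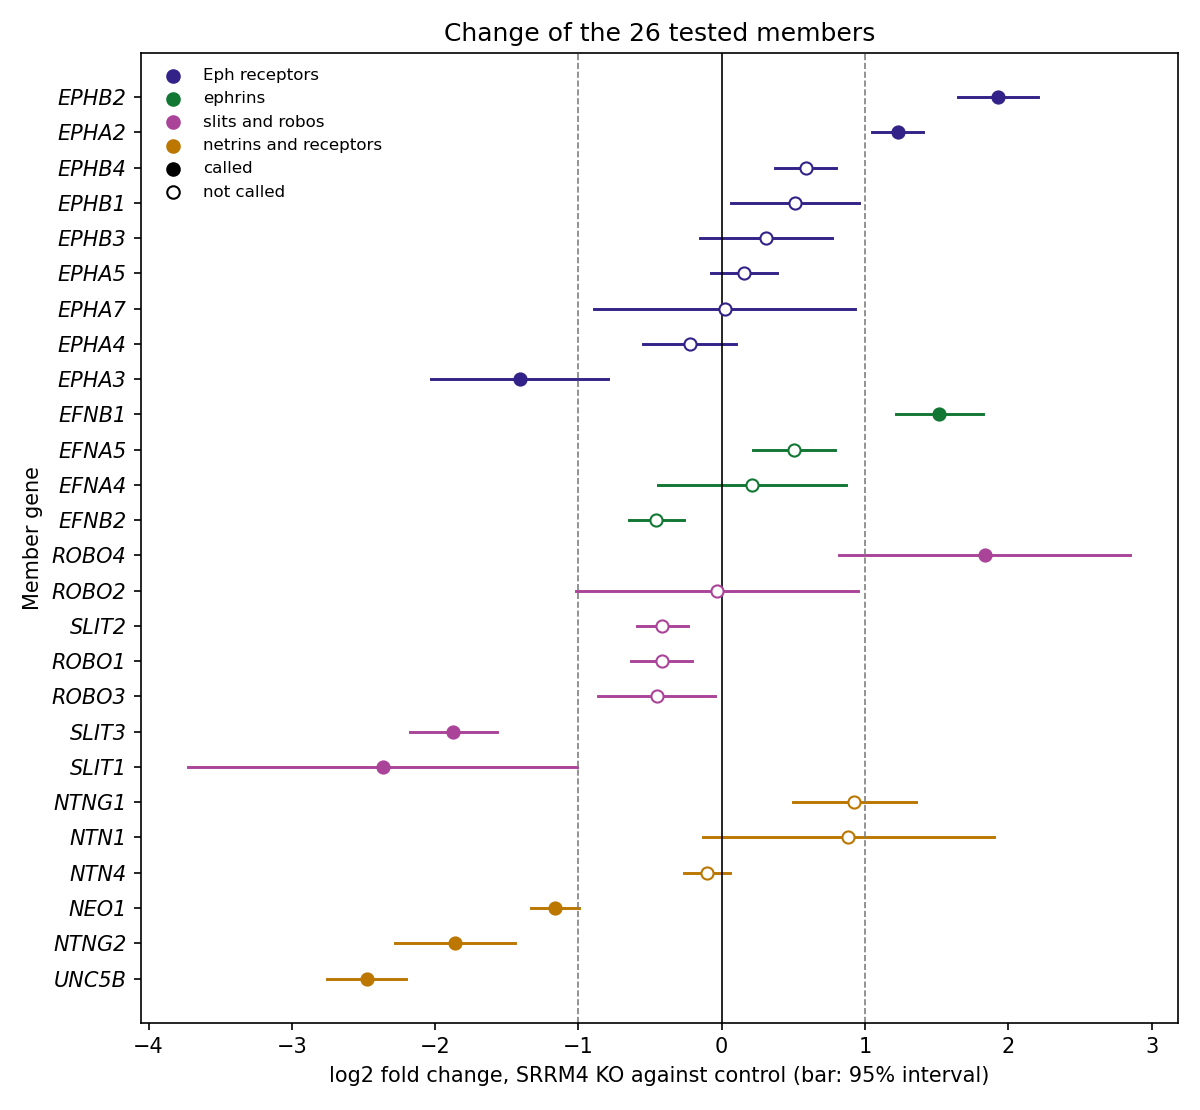
Change of the 26 tested members, with the log2 fold change of SRRM4 KO against control on the x axis and the genes, coloured by family, on the y axis. Bars are 95% intervals from the edgeR fit, filled points are called genes and dashed lines mark log2 fold changes of -1 and 1. The 4 filled points on the right are EPHB2, EPHA2, EFNB1 and ROBO4, and UNC5B lies lowest of the netrin family at -2.48.

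Among the receptors that bind ephrins, EPHA2 and EPHB2 rose, EPHB4 was higher by less than the fold threshold, and EPHA3 fell. EPHA2 (ENSG00000142627; chromosome 1, 16124337 to 16156087, GRCh38), a receptor of ephrin-A ligands that is abundant in epithelia and many tumours, had 3667, 4137 and 4573 counts in control and 10022, 10846 and 9515 in SRRM4 KO. Each SRRM4 KO library lay above all control libraries, of which control replicate 1 was the lowest. EPHA2 thus went from 189 ± 18.1 to 443 ± 9.06 CPM (SD, n = 3 each), with a 95% interval of the log2 fold change from 1.05 to 1.41 (edgeR adjusted p = 2.01e-08). Without control replicate 1 its log2 fold change was 1.16.

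EPHB2 (ENSG00000133216; chromosome 1, 22710839 to 22921500), a receptor of ephrin-B ligands that sorts cells along the intestinal crypt and guides axons, had 253, 345 and 369 counts in control and 1302, 1374 and 1177 in SRRM4 KO. Every SRRM4 KO library lay far above every control library, and without control replicate 1 the log2 fold change was 1.78. Its level rose 3.81-fold, from 14.7 ± 2.67 to 56.1 ± 2.49 CPM (SD, n = 3 each; 95% interval of the log2 fold change 1.65 to 2.21, edgeR adjusted p = 1.95e-08). The 42 tested genes within 2000000 bases of EPHB2 had a median log2 fold change of 0.06, and the 40 around EPHA2 a median of -0.02.

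EPHB4 (chromosome 7), the receptor known from venous endothelium, had 1348, 1478 and 1648 counts in control and 2298, 2741 and 2014 in SRRM4 KO. It was 1.5-fold higher with no overlap of the groups (log2 fold change 0.59, standard error 0.10, edgeR adjusted p = 0.000239) and was not called because of the fold threshold. EPHB4 shares 69 exon bases with SLC12A9 on the opposite strand, and non-stranded reads from these bases cannot be assigned. EPHA5, a receptor of ephrin-A ligands best known from the developing brain, had 1555, 1243 and 1220 counts in control and 1516, 1561 and 1604 in SRRM4 KO, overlapping through control replicate 1. The antisense gene EPHA5-AS1, with 16 to 47 counts, covers 5.44% of the exon bases of EPHA5. The log2 fold change of EPHA5 was 0.16 and had a 95% interval from -0.08 to 0.39 (edgeR adjusted p = 0.280), and without control replicate 1 it was 0.28 (adjusted p = 0.00963, same test).

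EPHA3 (ENSG00000044524; chromosome 3, 89107524 to 89482134), a receptor known from heart and brain development, had 104, 133 and 143 counts in control and 64, 30 and 54 in SRRM4 KO. All control libraries lay above the SRRM4 KO libraries without overlap, and the SRRM4 KO libraries were spread widely among themselves. Its level went from 5.79 ± 0.870 to 2.19 ± 0.853 CPM (SD, n = 3 each), a log2 fold change of -1.41 with a 95% interval from -2.03 to -0.79 (edgeR adjusted p = 0.00109). The other tested receptors, EPHA4, EPHA7, EPHB1 and EPHB3, had log2 fold changes from -0.22 to 0.51 and did not pass an adjusted p of 0.05. The closest was EPHB1, with 79 to 83 counts in control and 99 to 143 in SRRM4 KO (edgeR adjusted p = 0.0631). EPHA1, EPHA6, EPHA8 and EPHB6 had at most 17, 9, 6 and 10 counts in a library, and EPHA10 had none.

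Of the ephrins, the ligands of these receptors, EFNB1 rose, EFNA5 was moderately higher and EFNB2 moderately lower. EFNB1 (ENSG00000090776; chromosome X, 68828997 to 68842147), a transmembrane ligand of EphB receptors that is mutated in craniofrontonasal syndrome, had 206, 265 and 311 counts in control and 808, 836 and 702 in SRRM4 KO. The groups were far apart, control replicate 1 again being the lowest library. The rise was 2.87-fold, from 11.9 ± 2.24 to 34.2 ± 2.19 CPM (SD, n = 3 each; 95% interval of the log2 fold change 1.21 to 1.82, edgeR adjusted p = 6.30e-07). Genes of chromosome X had a median log2 fold change of 0.32, and EFNB1 exceeded that median by 1.20 on the log2 scale. Without control replicate 1 the log2 fold change was 1.38.

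EFNB2 (chromosome 13), the ephrin of arterial endothelium, had 1698, 1543 and 1558 counts in control and 1187, 1345 and 1139 in SRRM4 KO, with no overlap. Its level was 73.2 ± 4.49 CPM in control and 53.4 ± 1.74 CPM in SRRM4 KO (SD, n = 3 each; log2 fold change -0.46, edgeR adjusted p = 0.000865), a 1.37-fold difference that did not reach the fold threshold. The tested genes of chromosome 13 had a median of -0.27, and the log2 fold change of EFNB2 after subtracting it was -0.19. Exons of the antisense gene AL138689.2, with at most 5 counts, cover 26.2% of the exon bases of EFNB2. EFNA5, a lipid-anchored ligand of EphA receptors, had 357, 330 and 407 counts in control and 477, 548 and 596 in SRRM4 KO (log2 fold change 0.50, edgeR adjusted p = 0.00676). Its groups did not overlap either. EFNA4 had 46 to 82 counts in control and 57 to 103 in SRRM4 KO, with a 95% interval of the log2 fold change from -0.44 to 0.86. EFNA1, EFNA3 and EFNB3 were too low to be tested, and EFNA2 had 0 counts. Annotated exons of the gene AL691442.1, which had 0 counts, cover 44.7% of the exon bases of EFNA3 and 15.0% of those of EFNA4 on the same strand, and how reads from these bases were counted is not known.

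On the per-length scale of TPM (transcripts per 1e6, computed with the gene lengths of the table), on which genes can be compared with each other, EPHA2 was the most abundant receptor in every library. The summed level of the Eph receptors was 298 to 321 TPM in control and 613 to 633 TPM in SRRM4 KO. EPHA2 made up 63.7% to 68.1% of this sum in control and 76.4% to 77.5% in SRRM4 KO. The share of EphA receptors was 79.8% to 80.6% in control and 82.5% to 84.9% in SRRM4 KO. EPHB4, the next most abundant receptor, made up 15.1% to 15.9% in control and 10.6% to 12.5% in SRRM4 KO. Among the ephrins, EFNB2 led in control with 58.0% to 66.7% of the summed TPM, and EFNB1 held 12.2% to 17.5%. In SRRM4 KO the pair was level, EFNB2 with 36.3% to 39.4% and EFNB1 with 35.8% to 37.4% of the sum. The B class together kept 75.1% to 79.5% of the ephrin TPM in control and 73.8% to 76.6% in SRRM4 KO. These shares are descriptions of the libraries and carry no test. They depend on gene lengths that cover all annotated exon bases, which can exceed the length of the transcripts made.

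**Figure D2:**
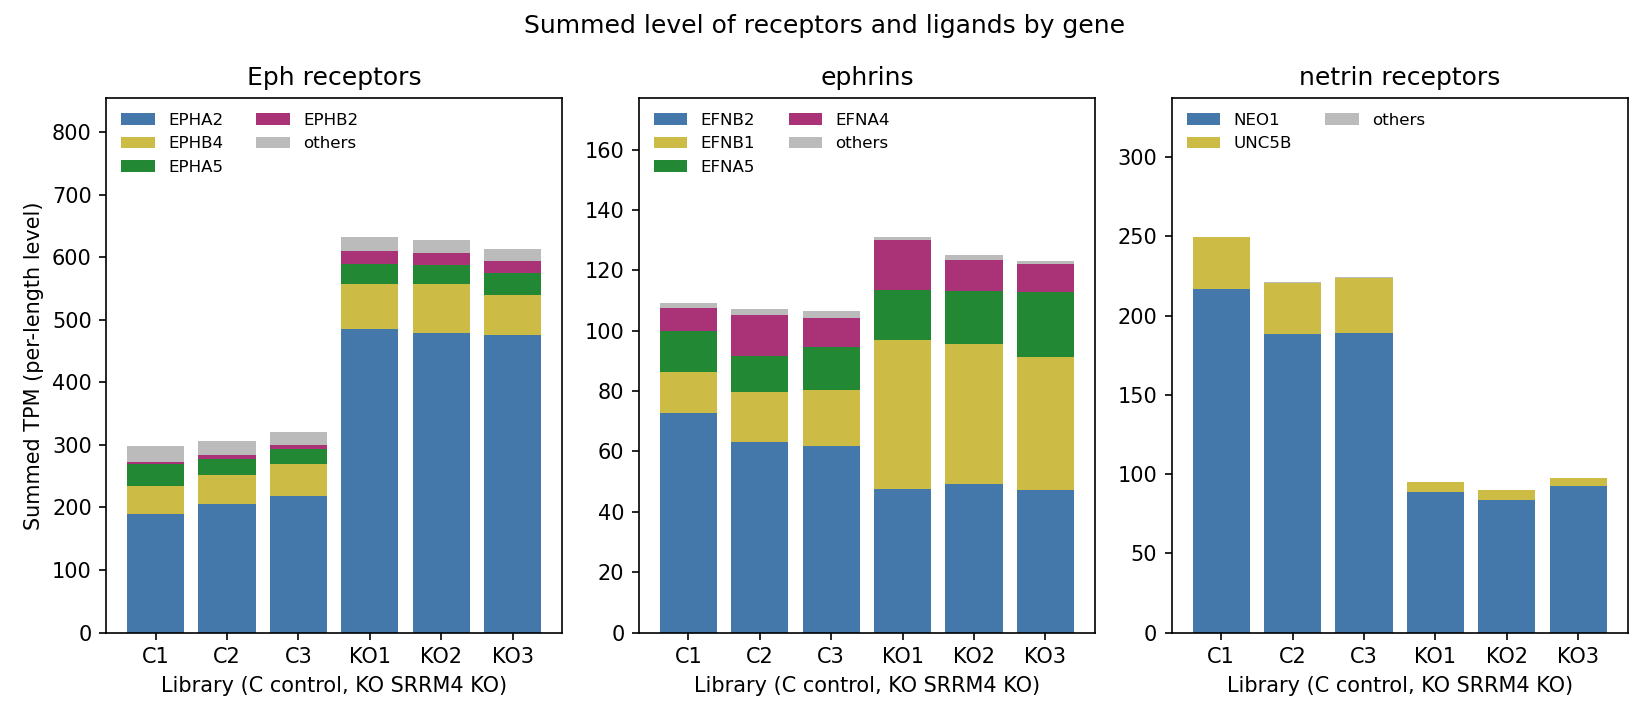
Summed TPM of the Eph receptors, the ephrins and the netrin receptors in each library (C1 to C3 control, KO1 to KO3 SRRM4 KO), with the colours giving the genes that make up each bar. The receptor sum rises from 298 to 321 TPM in control to 613 to 633 TPM in SRRM4 KO, and the netrin receptor sum is 221 to 250 TPM in control and 90.1 to 97.4 TPM in SRRM4 KO.

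Both netrin receptors that were tested fell. UNC5B (ENSG00000107731; chromosome 10, 71212570 to 71302864), a repulsive netrin receptor that can trigger cell death when no ligand is bound, had 1048, 1064 and 1198 counts in control and 224, 233 and 166 in SRRM4 KO. The groups were far apart, with control between 1048 and 1198 counts and no SRRM4 KO library above 233. UNC5B fell 5.57-fold, from 50.5 ± 2.84 to 9.05 ± 1.33 CPM (SD, n = 3 each), and its log2 fold change of -2.48 had a 95% interval from -2.75 to -2.20 (edgeR adjusted p = 1.09e-09).

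NEO1 (ENSG00000067141; chromosome 15, 73051710 to 73305206), which encodes neogenin, had 8163, 7428 and 7722 counts in control and 3567, 3700 and 3605 in SRRM4 KO. The spread within each group was small beside the gap between them. NEO1 fell 2.24-fold, from 356 ± 18 to 159 ± 6.09 CPM (SD, n = 3 each; 95% interval of the log2 fold change -1.33 to -1.0, edgeR adjusted p = 1.75e-08). Its interval reached the fold threshold, and a test against that threshold did not call it (adjusted p = 0.0919, edgeR glmTreat). In TPM, NEO1 was the leading netrin receptor, with 84.2% to 86.7% of the sum in control and 93.0% to 94.8% in SRRM4 KO. UNC5A had 2, 12 and 14 counts in control and 0 throughout SRRM4 KO. Taking 3 counts per library as the limit there, its mean level in control was 3.24-fold above that limit. Control replicate 1, with 2 counts, did not exceed it, and UNC5A was too low for the filter. UNC5C had at most 8 counts in a library, and UNC5D and DCC had 0 in all of them.

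Of the netrin ligands, NTN1 and NTN4 did not pass an adjusted p of 0.05, and the netrin-G genes did. NTN4, a netrin of basement membranes that binds laminins, was the most abundant member of its family. It had 5902 to 6075 counts in the control libraries and 5575, 6000 and 5985 in SRRM4 KO. Its level was 298 ± 12.4 TPM in control and 278 ± 18.3 TPM in SRRM4 KO (SD, n = 3 each). Its log2 fold change of -0.10 had a 95% interval from -0.26 to 0.06 (edgeR adjusted p = 0.307). NTN1, the classical netrin, had 17, 33 and 12 counts in control and 33, 62 and 27 in SRRM4 KO, with an interval from -0.13 to 1.90 on the log2 scale.

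NTNG2 and NTNG1 encode lipid-anchored netrins that bind LRRC4 family proteins and not DCC or UNC5, and their changes had opposite signs. NTNG2 (ENSG00000196358; chromosome 9, 132161676 to 132244534), whose short exon is shown above, had 269, 259 and 304 counts in control and 102, 74 and 63 in SRRM4 KO. The groups did not overlap, and the level fell 3.63-fold, from 12.7 ± 0.838 to 3.49 ± 0.944 CPM (SD, n = 3 each; 95% interval of the log2 fold change -2.28 to -1.44, edgeR adjusted p = 2.08e-06). Genes of chromosome 9 had a median log2 fold change of -0.24. NTNG1, on chromosome 1, had 121, 125 and 79 counts in control and 205, 216 and 226 in SRRM4 KO, a log2 fold change of 0.93 (standard error 0.20, edgeR adjusted p = 0.00167). Without control replicate 1 it was 1.02 and without control replicate 2 it was 1.05, past the fold threshold in both fits.

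All 3 slit genes were lower in SRRM4 KO. SLIT3 (ENSG00000184347; chromosome 5, 168661733 to 169301129), a secreted robo ligand, had 453, 428 and 495 counts in control and 119, 153 and 122 in SRRM4 KO. Every control library lay well above every SRRM4 KO library. SLIT3 fell 3.66-fold, from 21.0 ± 1.17 to 5.72 ± 0.495 CPM (SD, n = 3 each; 95% interval of the log2 fold change -2.18 to -1.57, edgeR adjusted p = 7.08e-08). SLIT1, whose known expression is mainly neuronal, had 17, 22 and 31 counts in control and 5, 8 and 1 in SRRM4 KO (log2 fold change -2.37, 95% interval -3.72 to -1.01, edgeR adjusted p = 0.00744). As stated above, SLIT1 passed the filter through the control libraries alone and so had to be lower in order to be tested. SLIT2, the most abundant slit, had 2243, 2168 and 2173 counts in control and 1738, 1793 and 1636 in SRRM4 KO. It was 1.33-fold lower without overlap of the groups (log2 fold change -0.42, edgeR adjusted p = 0.000903), under the fold threshold. SLIT2 accordingly made up 85.4% to 87.3% of the slit TPM in control and 94.1% to 95.3% in SRRM4 KO.

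Their receptors did not share a direction. ROBO1, the most abundant robo, had 2245, 1897 and 1798 counts in control and 1559, 1609 and 1489 in SRRM4 KO (log2 fold change -0.42, edgeR adjusted p = 0.00348). Control replicate 1 was its highest library, and without it the value was -0.31 (adjusted p = 0.00224, same test). ROBO3, known for letting axons cross the midline, had 168, 205 and 201 counts in control and 173, 159 and 107 in SRRM4 KO, with overlapping groups (edgeR adjusted p = 0.0718). Without control replicate 1 its log2 fold change was -0.54 (edgeR adjusted p = 0.0351) and without SRRM4 KO replicate 1 it was -0.62 (edgeR adjusted p = 0.0334). ROBO2 had 15 to 24 counts in control and 16 to 28 in SRRM4 KO, too few to narrow the 95% interval of its log2 fold change below -1.01 to 0.95. ROBO4 (ENSG00000154133; chromosome 11, 124883691 to 124898500), an endothelial robo, had 34, 28 and 50 counts in SRRM4 KO, where control had 10, 8 and 12. The groups did not overlap at this low level, 0.457 ± 0.0834 against 1.65 ± 0.571 CPM (SD, n = 3 each; log2 fold change 1.84, 95% interval 0.82 to 2.85, edgeR adjusted p = 0.00594).

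ROBO4 and EPHB4, which were higher in SRRM4 KO, and EFNB2, which was lower, are known from endothelium. The summed level of the 5 endothelial markers examined was 22.5 to 26.1 CPM in control and 4.43 to 5.86 CPM in SRRM4 KO, with TEK and KDR called lower. TEK went from 13.7 to 0.994 CPM and KDR from 9.42 to 3.11 CPM, and VWF was not called (log2 fold change -0.35, edgeR adjusted p = 0.587). CDH5 and PECAM1, the markers that define the cell type, were at 1 and 3 counts at most in every library. What part the lower marker level has in the values of ROBO4, EPHB4 and EFNB2 was not tested.

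**Figure D3:**
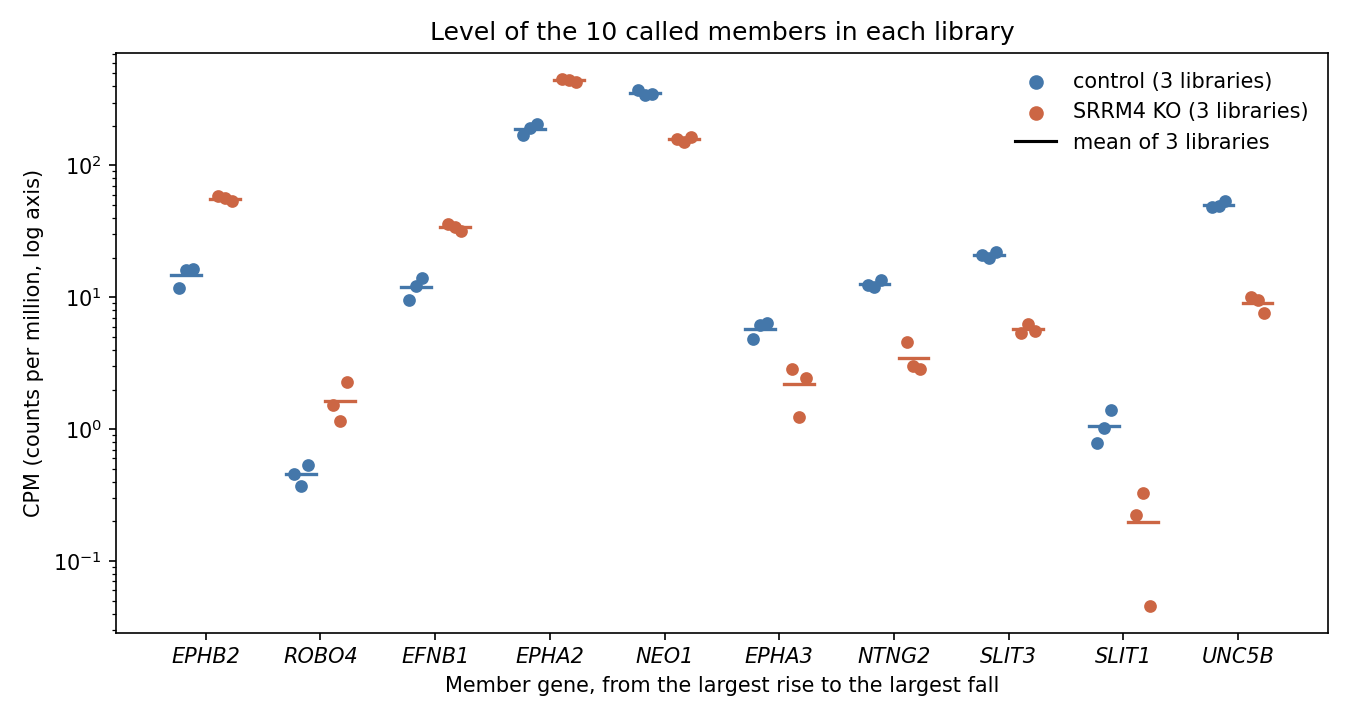
CPM on a log axis of the 10 called members in each of the 3 control and 3 SRRM4 KO libraries, with the genes ordered from the largest rise to the largest fall and a line at each group mean. The points of the groups do not overlap in these 10 genes, chosen because they were called, nor in 51.8% of all tested genes. SLIT1 and ROBO4 are the lowest, at 0.199 to 1.65 CPM on average.

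Windows from 250 bases before to 50 bases after the start of a gene were available from RefSeq (GRCh38.p14) for 34 of the 41 members, 47 windows in all, not including UNC5B and NTNG2. Their median GC content was 66.7%, and that of all 35116 windows was 58.7%. The motif GGGCGG, the core of the GC box, occurred on either strand in 38 of the 47 windows (80.9%) and in 45.0% of all windows of this length. Some members had several windows, in part overlapping, and counted by gene 30 of the 34 members had the motif in a window. The motif TATAAA occurred in 2 of the 47 (4.26%) and in 11.5% of all. TGACTCA occurred in 0 of 47 and in 4.95% of all, CAGGTG in 19.1% and 20.6%, and GGAATG in 6.38% and 14.0%, each searched on both strands. A match is a description of the letters and not a binding site. The windows of 3 members that rose and 2 that fell are given as examples of called genes with a mean above 5 CPM in both groups, with GGGCGG or its reverse complement in capitals.
EPHA2, higher (chr1:16156020-16156319, minus strand): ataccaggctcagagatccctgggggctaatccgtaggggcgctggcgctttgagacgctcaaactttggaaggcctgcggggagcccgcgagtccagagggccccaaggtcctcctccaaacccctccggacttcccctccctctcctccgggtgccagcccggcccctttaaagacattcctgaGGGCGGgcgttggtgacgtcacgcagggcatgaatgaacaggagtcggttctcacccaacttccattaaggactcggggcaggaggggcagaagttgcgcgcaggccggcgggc
EPHB2, higher (chr1:22710588-22710887, plus strand): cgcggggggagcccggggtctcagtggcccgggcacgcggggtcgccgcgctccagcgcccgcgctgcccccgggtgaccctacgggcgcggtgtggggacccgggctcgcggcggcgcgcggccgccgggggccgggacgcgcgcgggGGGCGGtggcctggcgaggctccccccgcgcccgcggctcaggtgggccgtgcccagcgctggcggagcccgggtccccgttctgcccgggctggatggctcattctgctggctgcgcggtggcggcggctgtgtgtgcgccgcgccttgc
EFNB1, higher (chrX:68828771-68829070, plus strand): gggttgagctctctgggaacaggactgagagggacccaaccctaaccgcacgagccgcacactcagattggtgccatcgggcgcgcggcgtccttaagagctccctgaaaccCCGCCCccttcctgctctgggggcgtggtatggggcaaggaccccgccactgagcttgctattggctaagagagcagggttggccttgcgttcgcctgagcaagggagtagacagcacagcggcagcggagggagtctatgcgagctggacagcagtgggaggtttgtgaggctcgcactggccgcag
NEO1, lower (chr15:73051652-73051951, plus strand): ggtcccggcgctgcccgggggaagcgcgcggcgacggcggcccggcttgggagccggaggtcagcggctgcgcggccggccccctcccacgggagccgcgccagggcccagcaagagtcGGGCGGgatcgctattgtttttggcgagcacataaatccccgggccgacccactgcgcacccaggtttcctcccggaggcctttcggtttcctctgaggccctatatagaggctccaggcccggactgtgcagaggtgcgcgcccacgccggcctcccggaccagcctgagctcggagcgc
SLIT3, lower (chr5:169301090-169301389, minus strand): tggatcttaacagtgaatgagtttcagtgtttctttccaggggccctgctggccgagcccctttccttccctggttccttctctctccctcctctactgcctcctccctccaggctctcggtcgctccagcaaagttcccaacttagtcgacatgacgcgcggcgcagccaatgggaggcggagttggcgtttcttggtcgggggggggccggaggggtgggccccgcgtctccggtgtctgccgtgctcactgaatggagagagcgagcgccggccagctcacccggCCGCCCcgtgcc
Each of the 5 windows held the motif 1 time, in genes of either direction.

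The proteins that carry these signals inside the cell, or bind the same receptors, were listed by their known roles, with earlier results of these data known. Of 41 partners of ephrins and Eph receptors 36 were tested, 1 was called higher and 2 lower (8.33%, beside 12.6% of all tested genes), with a median log2 fold change of -0.06. TIAM1, an activator of the GTPase Rac, rose from 12.5 ± 1.68 to 26 ± 2.13 CPM (SD, n = 3 each; log2 fold change 1.05, edgeR adjusted p = 1.79e-05). KALRN, a guanine nucleotide exchange factor, fell from 34.8 ± 4.39 to 17 ± 0.754 CPM (log2 fold change -1.03, edgeR adjusted p = 8.11e-06), and GRIP1, a scaffold bound by ephrin-B, fell from 2.46 ± 0.613 to 0.971 ± 0.251 CPM (log2 fold change -1.34, edgeR adjusted p = 0.0101). These calls lie near the thresholds. TIAM1 was not called without control replicate 2 (log2 fold change 0.97) or SRRM4 KO replicate 1 (0.99), KALRN not without control replicate 1 (-0.95), and GRIP1 not without control replicate 3 (edgeR adjusted p = 0.063).

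Of 25 slit and robo partners 24 were tested, with a median of -0.03, and CDC42 alone was called (4.17%). It was above the limit of the filter on low counts in 3 SRRM4 KO libraries and 1 control library, and was tested because of its SRRM4 KO level. CDC42 had 4, 14 and 6 counts in control and 52, 22 and 16 in SRRM4 KO, a low number for a GTPase that is known from nearly all cells (log2 fold change 1.83, edgeR adjusted p = 0.0272). Exons of AL031281.2 on the same strand cover 57.1% of its exon bases, and how reads shared by both were counted is not known, so the value is uncertain. It was not called without control replicate 1, control replicate 3 or SRRM4 KO replicate 1 (edgeR adjusted p = 0.0854, 0.0981 and 0.238).

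Of 40 netrin partners 32 were tested, 1 was called higher and 4 lower (15.6%), with a median of -0.06. Of the 4 lower calls, TRIM67 and RGMA passed the filter through the control libraries alone and so had to differ in order to be tested. ADGRL2, a latrophilin that binds FLRT proteins, rose from 93.9 ± 16.6 to 227 ± 10.4 CPM (SD, n = 3 each; log2 fold change 1.27, edgeR adjusted p = 2.44e-07). DRAXIN, a secreted DCC ligand, had 72, 85 and 80 counts in control and 41, 15 and 22 in SRRM4 KO (log2 fold change -1.65). TRIM67 and TRIM9, ubiquitin ligases that bind DCC, had 40, 79 and 72 against 0, 6 and 5 counts and 30, 32 and 22 against 8, 15 and 11 counts. RGMA, a repulsive ligand of neogenin, had 11, 10 and 36 counts in control and 1, 0 and 0 in SRRM4 KO (edgeR adjusted p = 0.000754), and without control replicate 1 or 3 it was too low to be tested. TRIM9 (edgeR adjusted p = 0.0313) stayed called in only 1 of the 6 fits that left out a library, the one without control replicate 3. Over all genes tested the median was -0.005, and 5 genes of these lists stand in 2 of them.

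**Figure D4:**
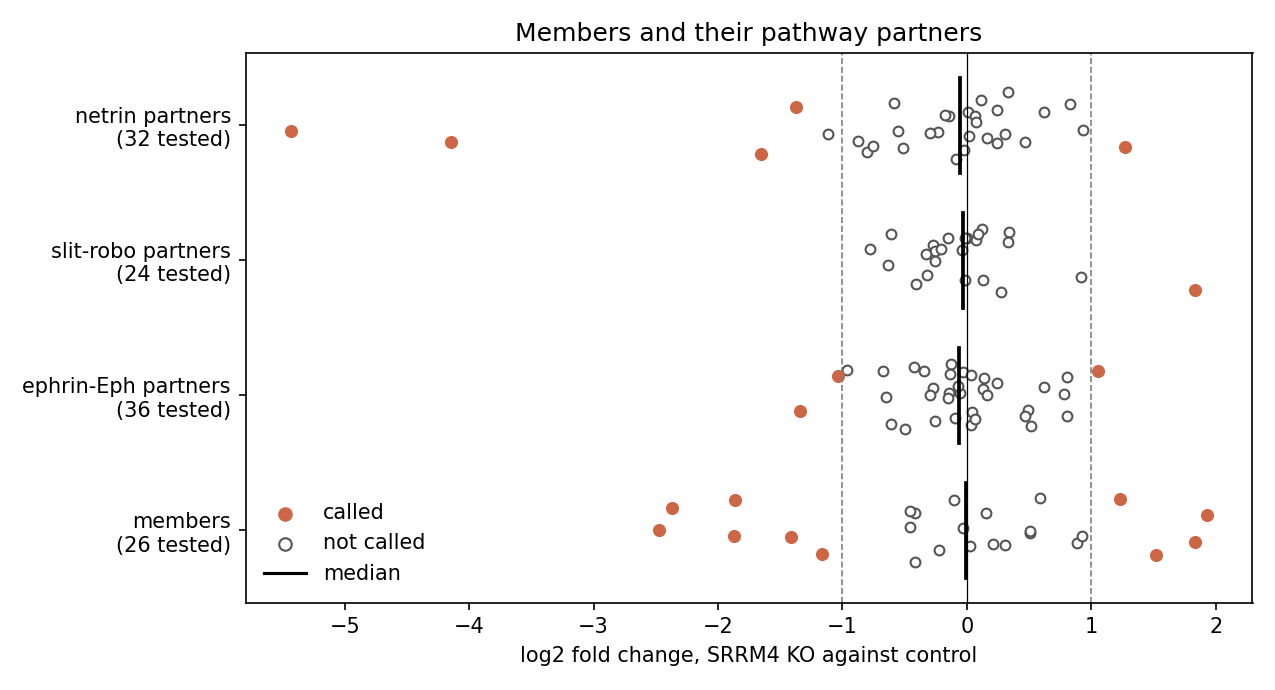
Log2 fold change of SRRM4 KO against control (x axis) of the 26 tested members and of the tested genes of the 3 partner lists, with filled points for called genes, a black line at each median and dashed lines at -1 and 1. The medians lie between -0.06 and -0.005, and called genes number 10 of 26 members, 3 of 36, 1 of 24 and 5 of 32 partners, beside 12.6% of all tested genes.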

How the data were processed

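RNA of 3 control and 3 SRRM4 KO libraries was measured by mRNA-seq (non-stranded). The authors deposited raw counts per gene, and their processing notes name HISAT2 2.0.5, featureCounts 1.5.0-p3 and DESeq2; the build, annotation and treatment of shared reads are not given in the sources used here. All 58735 gene IDs were found in GENCODE release 29, and all 41 members had identical coordinates there. Columns were assigned by sample title. Counts were analysed with edgeR 4.0.16 (R 4.3.3): filterByExpr, TMM, prior count 0.125, quasi-likelihood test, Benjamini-Hochberg over all 15341 genes. Standard errors come from the log2 fold change and F statistic. TPM used the deposited gene lengths. An exact permutation test of 3 against 3 libraries cannot go below p = 0.10 and was not used. No pair of libraries agreed within sampling noise (chi-square per degree of freedom 5.05 to 23.9). Full values are given for called members and the 3 of highest TPM per family, and at most 4 called partners per direction and list are named; counts of further members were added after their values were seen. Members, lists and rules were chosen with earlier results of these data known. Alternatives included DESeq2 1.42.0. The fits were tested on simulated data.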

Additional observations from a re-analysis of the deposited data

How the results depend on the processing

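The 10 called members were called in the same direction in each of the 6 fits that left out 1 library, where the members called higher numbered 4 to 5 and those called lower 6 to 7, and no tested member with full values changed sign under any alternative. The added calls were NTNG1 higher and UNC5A lower. UNC5A was above the limit of the filter in 2 control and 0 SRRM4 KO libraries. Where the filter let it in, it had to differ in order to be tested. UNC5A was also called lower without a filter on low counts and by DESeq2. DESeq2 size factors, upper-quartile normalization and protein-coding genes only gave the same 4 higher and 6 lower members, and requiring 10 counts in every library left ROBO4 and SLIT1 untested. Against the fold threshold itself (glmTreat), 3 members were called lower (UNC5B, SLIT3, NTNG2), and 3 higher, EPHA3, NEO1, ROBO4 and SLIT1 being no longer called. With no fold threshold 7 members were higher and 9 lower, where 20.7% and 20.9% of all tested genes were. The replicate numbers are shared only as numbers (correlations of same-numbered deviations from -0.05 to 0.08). With the replicate block 4 members were higher and 6 lower, and 3 netrin partners were lower.

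The partner lists hold few calls and moved more. For ephrin partners called higher or lower, slit partners higher or lower, and netrin partners higher or lower, the counts were 8, 9, 4, 9, 4 and 12 with no fold threshold, of 36, 24 and 32 tested, beside 41.6% of all tested genes in either direction. Ephrin and slit partners called higher numbered 2 each without a filter and by DESeq2. With 10 counts in every library 0 slit partners were higher and 1 netrin partner was lower. With glmTreat the counts were 0 higher and 0 lower for ephrin partners, 0 higher for slit partners and 2 lower for netrin partners. With 1 library left out, ephrin partners numbered 0 to 2 higher and 1 to 3 lower, slit partners 0 to 1 higher, and netrin partners 1 to 2 higher and 2 to 3 lower. The cause of these moves was not tested beyond what each setting changes by construction. At this depth 15 of the 41 members were too low to be tested.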

Other observations

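Some members lie near each other in the genome. ROBO3 and ROBO4 are 2220 bases apart on chromosome 11 on opposite strands with no protein-coding gene between them, and their log2 fold changes were -0.45 and 1.84. Within 2000000 bases of ROBO4, 35 genes were tested, 2 were called higher and 1 lower, and their median log2 fold change was 0.23. EFNA4, EFNA3 and EFNA1 follow each other on chromosome 1 at distances of 9318 and 39921 bases, and of these EFNA4 alone reached the filter on low counts. EPHA8 lies 107244 bases before EPHB2 on the same strand, with 3 protein-coding genes between them, and had 0 counts except 6 in SRRM4 KO replicate 3, while EPHB2 had 253 to 1374 counts. UNC5B fell beside 39 tested neighbours with a median of -0.08, of which 1 was called higher and 4 lower.

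The counts of a pair of low members outside the test were as follows. EFNB3, a ligand of EphB receptors, had 10, 11 and 5 counts in control and 0, 4 and 0 in SRRM4 KO. EPHB6, a receptor without kinase activity, had 3, 10 and 8 counts in control and 0, 0 and 3 in SRRM4 KO. Neither passed the filter on low counts. Without that filter neither was called by edgeR (adjusted p = 0.124 for EFNB3 and 0.203 for EPHB6), nor by DESeq2 (adjusted p = 0.118 and 0.165).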
